A study of Homo sapiens and Mus musculus with 8 samples.

Results

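The AP-1 factors FOS, FOSB, FOSL1, FOSL2, JUN, JUNB and JUND were examined together with EGR1 and ATF3, 9 genes of the 60483 in the count table. They were taken by symbol: each row whose Ensembl gene ID carries one of these names was used, and all 9 were found and tested. The messenger RNA came from 2 colorectal cancer lines of human origin, KM12 and LS174T. Each line was profiled in bulk, both cultured and as a xenograft, meaning a tumor that the cultured cells formed in mice. The KM12 groups were parental cells, of genotype GNAS R201H, and GNAS knockout cells, each as culture and xenograft. The LS174T groups were GNAS R201H cells without doxycycline, Dox (-), or with it, Dox (+), again each as culture and xenograft. Each of these 8 groups has 1 library, so no group has a replicate of its own. The labels do not say what Dox switches on, whether the knockout is a single clone, or which mouse strain hosted the tumors, and they give no treatment beyond Dox. KM12 parental and LS174T Dox (+) are called here the higher GNAS state, from the labels. In GENCODE 29 on GRCh38 the genes lie at chr14:75278774-75282230 (FOS, plus strand), chr19:45467995-45475179 (FOSB, plus), chr11:65892049-65900573 (FOSL1, minus), chr2:28392448-28417312 (FOSL2, plus) and chr1:58780788-58784327 (JUN, minus). JUNB lies at chr19:12791496-12793315 (plus), JUND at chr19:18279760-18281622 (minus), EGR1 at chr5:138465490-138469315 (plus) and ATF3 at chr1:212565334-212620777 (plus).

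AP-1 is a dimer of a JUN protein (JUN, JUNB or JUND) with a FOS protein (FOS, FOSB, FOSL1 or FOSL2) or with an ATF protein such as ATF3, and FOS proteins cannot pair with each other. FOS, FOSB, JUN, JUNB, EGR1 and ATF3 are immediate-early genes: growth factors, stress and cAMP raise their transcription within minutes without new protein synthesis, while FOSL1 and FOSL2 follow later and FOSL1 is kept up by sustained ERK signaling. GNAS encodes the G protein subunit that stimulates cAMP production, and cAMP acts on such genes through CREB bound to TGACG elements, whereas ERK acts through serum response factor at CArG boxes.

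The upstream sequences show where these elements lie. Windows of the 250 bases before the RefSeq start (build GRCh38.p14) were matched for 8 members, with a second start for ATF3. TGACG, the core of the cAMP response element, was matched on either strand in the windows of FOS, FOSB, FOSL2, JUN, JUNB, JUND and EGR1, against 21.2% of 35116 windows of the same length. TGACATCA, an AP-1 and ATF site that does not contain TGACG, was matched in JUN and in the first ATF3 window, against 2.38% of windows. The classical AP-1 site TGACTCA, held by 4.20% of windows, was matched in none of the member windows. The stretches below are shown because they hold these elements. They are written 5′ to 3′ on the gene's strand, with matched elements in capitals (CGTCA is TGACG on the other strand).
FOS chr14:75278578-75278773 (+): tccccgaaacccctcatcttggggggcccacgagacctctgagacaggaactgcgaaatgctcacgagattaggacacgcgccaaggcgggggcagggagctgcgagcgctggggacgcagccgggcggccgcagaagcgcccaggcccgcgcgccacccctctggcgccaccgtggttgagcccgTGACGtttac
FOSB chr19:45467746-45467994 (+): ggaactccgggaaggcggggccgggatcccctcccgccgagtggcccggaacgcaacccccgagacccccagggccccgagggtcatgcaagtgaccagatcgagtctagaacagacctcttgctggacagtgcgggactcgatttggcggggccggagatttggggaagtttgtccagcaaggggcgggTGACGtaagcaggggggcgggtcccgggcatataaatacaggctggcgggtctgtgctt
FOSL2 chr2:28392780-28392809 (+): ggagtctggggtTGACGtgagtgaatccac
JUN chr1:58784096-58784125 (-): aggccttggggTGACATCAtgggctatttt
JUND chr19:18281623-18281872 (-): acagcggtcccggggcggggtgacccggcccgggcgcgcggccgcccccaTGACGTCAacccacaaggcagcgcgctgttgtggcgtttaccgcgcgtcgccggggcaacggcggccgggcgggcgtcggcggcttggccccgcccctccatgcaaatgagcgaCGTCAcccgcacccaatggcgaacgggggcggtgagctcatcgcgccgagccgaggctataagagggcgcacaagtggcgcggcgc
EGR1 chr5:138465229-138465478 (+): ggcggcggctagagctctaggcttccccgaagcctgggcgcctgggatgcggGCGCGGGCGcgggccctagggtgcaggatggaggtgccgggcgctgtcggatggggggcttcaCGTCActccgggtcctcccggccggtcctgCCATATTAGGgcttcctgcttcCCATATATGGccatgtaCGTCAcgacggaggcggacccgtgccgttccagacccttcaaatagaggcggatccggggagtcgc
ATF3 chr1:212565157-212565333 (+): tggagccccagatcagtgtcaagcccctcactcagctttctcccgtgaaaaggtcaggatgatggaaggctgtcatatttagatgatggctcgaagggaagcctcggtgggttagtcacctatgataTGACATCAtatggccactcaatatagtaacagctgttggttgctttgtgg

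In these letters FOS and FOSB each hold 1 TGACG, 60 to 64 and 56 to 60 bases before the start. JUND holds 3 matches of TGACG, of which a forward and a reverse match overlap in the palindrome TGACGTCA. EGR1 holds 2 CArG boxes, an element found in 1.16% of windows, together with 2 reverse matches of TGACG and 1 of the EGR1 site itself, GCGNGGGCG, which 8.42% of windows hold. The JUN site lies 60 to 67 bases before the RefSeq start, inside the first exon of the longer GENCODE 29 model. The FOSL2 window likewise lies inside the GENCODE 29 gene, past its first base at 28392448, and so does the FOSL2 site shown. A match is a run of letters and shows no binding.

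Levels are given as CPM, a gene’s counts per fixed number of counts in its library, adjusted by TMM (edgeR's trimmed mean of M-values). Depth was 31868711 to 37735085 counts in the cultures and 15924846 to 23124811 in the xenografts, and mitochondrial genes took 7.22% to 11.8% of counts in cultures and 5.23% to 8.66% in xenografts. Each member had at least 153 counts in every library. GNAS, the gene set by the design, was at 1118 CPM in the KM12 parental culture and 297.6 CPM in the knockout culture, and at 1385 and 900.8 CPM in the matching xenografts. In LS174T, GNAS was at 690.4 CPM with Dox (-) and 1743 CPM with Dox (+) in culture, and at 584 and 689.7 CPM in the xenografts. GNAS was thus higher in the labelled higher state in all 4 pairs, by 3.75-fold and 2.52-fold in culture and by 1.54-fold and 1.18-fold in xenografts. The 8 epithelial markers were detected in every library, with sums of 4909 to 24880 CPM. Fibroblast markers summed to 266 CPM in the KM12 parental xenograft, of which COL3A1 made 219.5 CPM, and to 5.27 to 15.2 CPM in the other 7 libraries. Endothelial, red cell and leukocyte markers summed to at most 1.40, 1.49 and 8.64 CPM. In bulk libraries, fewer cells of a type and less RNA per cell cannot be told apart. The markers are human genes, and how mouse reads in the xenografts were treated is not given. The sums therefore do not measure mouse cells in the tumors. Whether mouse reads entered the xenograft level of any gene, members included, was not tested.

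Among the FOS proteins, FOS is the strong transcriptional activator of the early response, and its transcript was spread over 5.50-fold between libraries. In KM12, FOS was at 662 CPM (parental) and 498 CPM (knockout) in culture and at 126 and 147 CPM in the xenografts. In LS174T, FOS was at 287 CPM (Dox (-)) and 250 CPM (Dox (+)) in culture and at 693 and 315 CPM in the xenografts. The KM12 xenografts were the lowest libraries and the LS174T Dox (-) xenograft the highest, so the environments overlapped. FOSB, which resembles FOS and has a truncated stable splice form, was at 96.7 and 96.45 CPM in the KM12 cultures, 19.4 and 7.41 CPM in the KM12 xenografts, 51.15 and 26.2 CPM in the LS174T cultures and 8.48 and 12.8 CPM in the LS174T xenografts. All 4 xenografts lay below all 4 cultures for FOSB.

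FOSL1 (FRA-1) and FOSL2 (FRA-2) lack the strong activation domain of FOS and are the late partners of JUN proteins. In the same order of groups, FOSL1 was at 191 and 199 CPM in cultured KM12 and 56.2 and 29.05 CPM in its xenografts, and at 90.6 and 79.6 CPM in cultured LS174T and 18.1 and 16.3 CPM in its xenografts. Its groups did not overlap, with every xenograft below every culture. FOSL2 had the opposite order: 172 and 132 CPM in the KM12 cultures, 264 and 438 CPM in the KM12 xenografts, 157 and 156 CPM in the LS174T cultures and 363 and 240 CPM in the LS174T xenografts. Every xenograft lay above every culture for FOSL2.

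JUN, the main activating partner, was at 227 and 231.5 CPM in the KM12 cultures and at 130 and 125 CPM in the KM12 xenografts, against 225 and 178 CPM in the LS174T cultures and 766 and 552 CPM in the LS174T xenografts. The 4 cultures lay between 178 and 231.5 CPM, and the xenografts of the lines stood on opposite sides of them. JUNB, a weaker activator that can counter JUN, spanned 1.98-fold, from 62.7 CPM in the KM12 parental xenograft to 124 CPM in the KM12 knockout culture. The other JUNB values were 118 CPM in the KM12 parental culture, 79.4 CPM in the knockout xenograft, 90.8 and 86.5 CPM in cultured LS174T without and with Dox and 112 and 106.5 CPM in the matching xenografts. JUNB shares 259 exon bases with HOOK2 on the opposite strand, and the library method does not mark strand, so its counts are uncertain to that extent. JUND, the more constant family member in most cells, was at 165 and 150 CPM in the KM12 cultures, 135 and 218 CPM in the KM12 xenografts, 199 and 191 CPM in the LS174T cultures and 581.5 and 423 CPM in the LS174T xenografts. The LS174T xenografts were the highest libraries for both JUN and JUND.

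EGR1, a zinc finger factor induced through CArG boxes by ERK, had the widest range of the 9 genes, 15.5-fold. It was at 423 and 474 CPM in the KM12 cultures and 85.5 and 97.5 CPM in the KM12 xenografts, and at 54.7 and 58.3 CPM in cultured LS174T without and with Dox and 30.55 and 54.0 CPM in the matching xenografts. All 4 KM12 libraries lay above all 4 LS174T libraries. ATF3, a stress-induced factor that represses many targets as a homodimer, was at 32.4 and 40.6 CPM in the KM12 cultures, 25.5 and 33.9 CPM in the KM12 xenografts, 22.65 and 15.4 CPM in the LS174T cultures and 55.5 and 38.2 CPM in the LS174T xenografts.

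**Figure D1:**
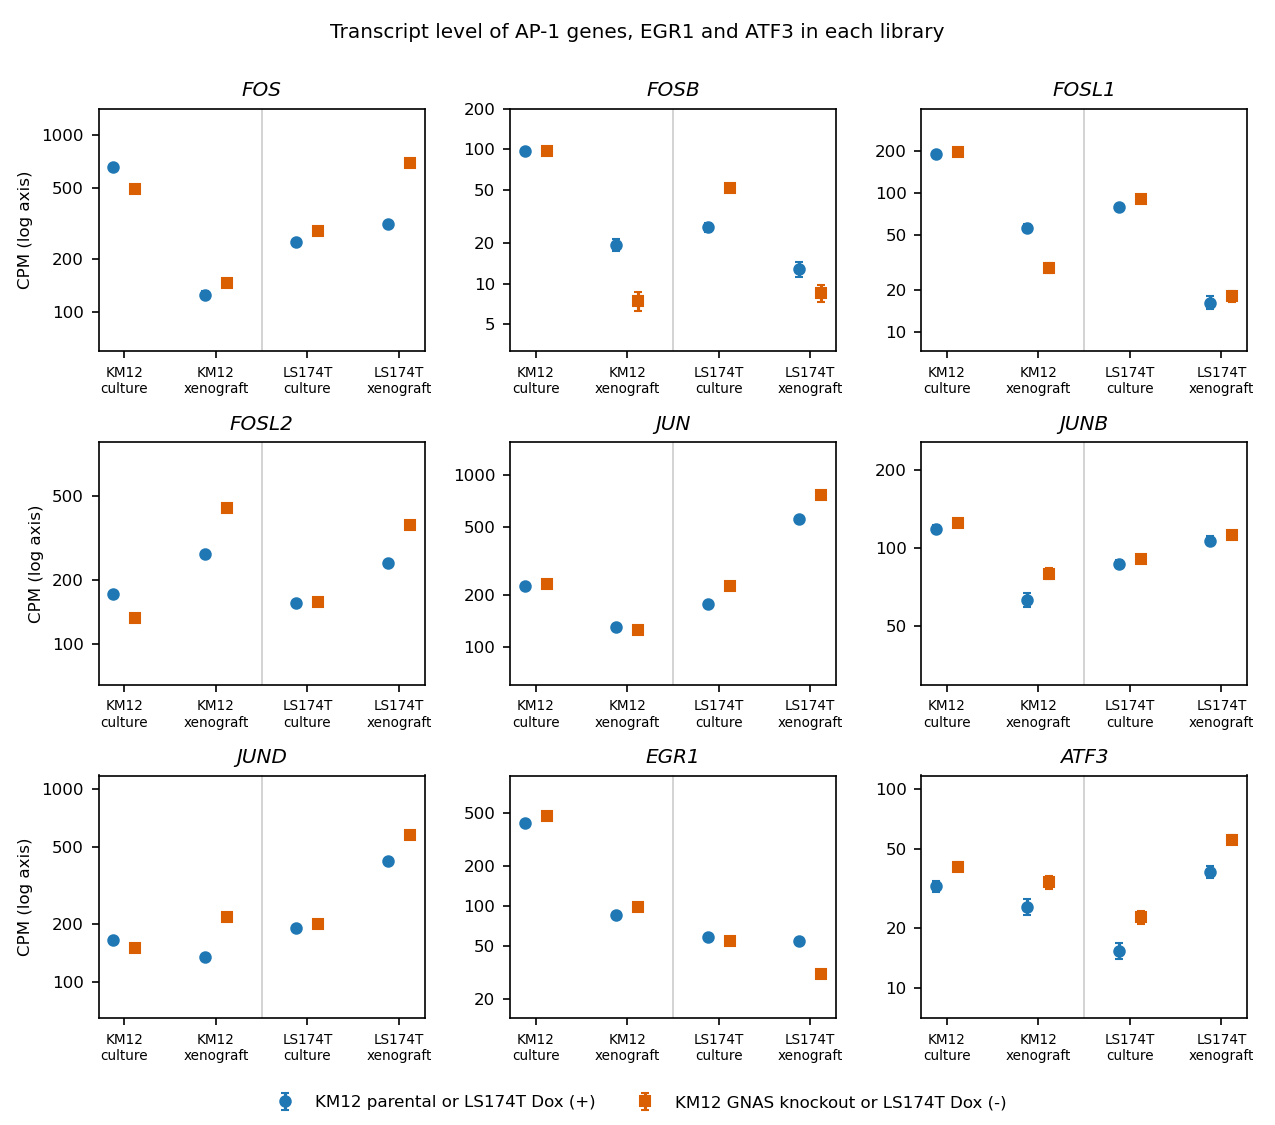
Each panel plots the CPM of 1 gene on a log axis (panel scales differ) by cell line and environment, with circles for KM12 parental or LS174T Dox (+) and squares for KM12 GNAS knockout or LS174T Dox (-), and bars for 95% Poisson intervals, which cover counting error only. FOSB and FOSL1 were lower and FOSL2 higher in every xenograft than in every culture, and JUN was highest in the LS174T xenografts (766 and 552 CPM).

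The order of libraries can be read only as far as counting error, because no group was repeated. For FOS, each of the 7 steps between neighbours in that order exceeded the 95% Poisson counting intervals. At the other end, 5 of 7 neighbouring steps overlapped for JUNB and 4 of 7 for ATF3. For JUN, 3 of 7 steps overlapped, all outside the high LS174T xenografts. For EGR1 and FOSB, 2 of 7 steps overlapped in each.

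Levels of different genes were compared only per kilobase of exon. On the FOS side, FOS made 58.9% (parental) and 52.2% (knockout) of the summed family level in cultured KM12 and 35.65% and 36.85% in the xenografts, while FOSL2 made 6.90% and 6.24% in those cultures and 33.8% and 49.6% in the xenografts. In the KM12 knockout xenograft FOSL2 was thus above FOS per kilobase of exon, but divided by the longest transcript the order turned, with FOS at 44.6% and FOSL2 at 42.7%. The summed level fell short of the cultures there, at 109 and 123.5 CPM per kb in the KM12 xenografts against 347 and 295 CPM per kb in culture. In LS174T, FOS made 52.8% and 52.9% in culture and 77.55% and 68.6% in xenografts. FOSL1 made 28.6% and 28.9% in the LS174T cultures and 3.48% and 6.08% in the LS174T xenografts. FOSB made at most 5.89% of the family in any library. Dividing by the longest transcript instead of all exon bases raised the median FOS share over the 8 libraries from 52.8% to 59.5%.

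On the JUN side, the summed level was 144 to 220 CPM per kb in 6 libraries and 590 and 441.5 CPM per kb in the LS174T Dox (-) and Dox (+) xenografts. JUND made the largest share in every library, from 37.55% in the KM12 knockout culture to 59.7% in the knockout xenograft. JUNB made 22.2% to 31.9% in 6 libraries and 10.4% and 13.3% in the LS174T xenografts, where JUN made 36.7% and 35.3%.

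**Figure D2:**
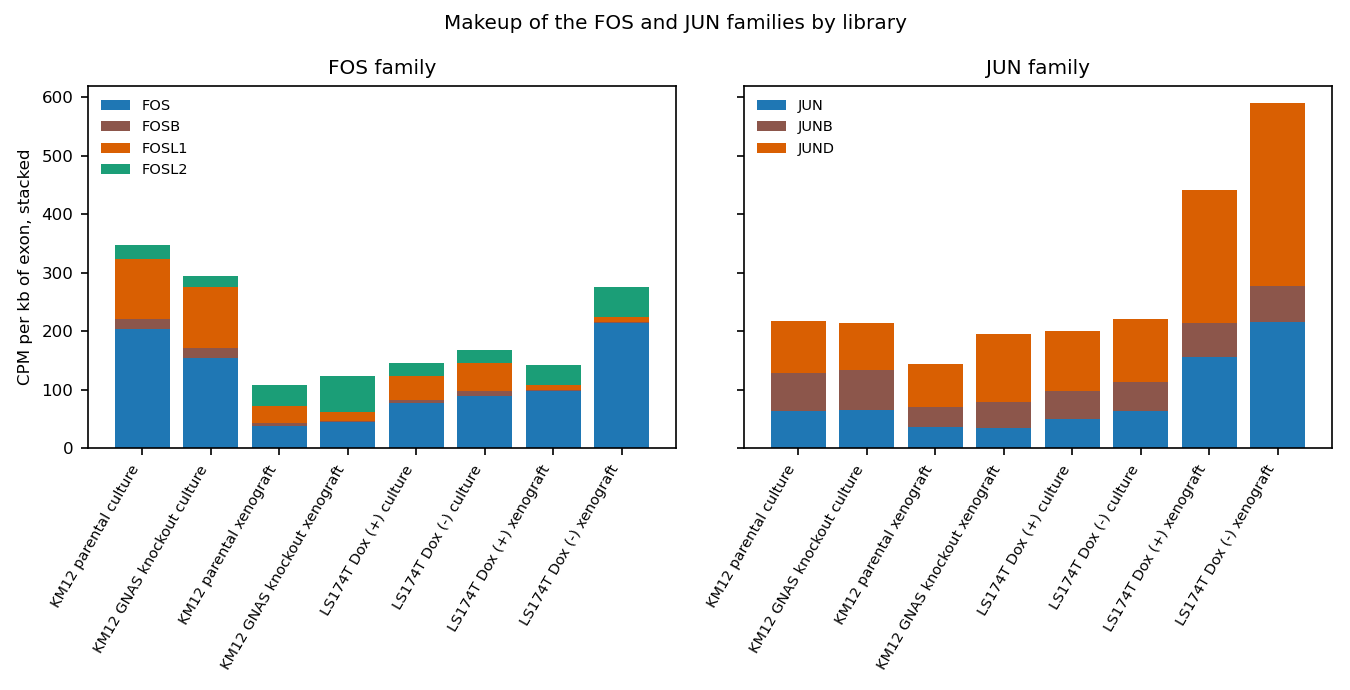
Stacked bars give the CPM per kilobase of exon of the FOS family (left) and the JUN family (right) in each of the 8 libraries, 1 library per bar and no error. The FOS family was largest in the KM12 parental culture (347) and the JUN family in the LS174T Dox (-) xenograft (590).

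The xenograft was compared with culture over the 4 matched pairs of line and GNAS state, by edgeR's quasi-likelihood test on counts with Benjamini-Hochberg adjustment over 16070 genes and a threshold of 0.05. The error of each log2 difference is a standard error (SE), n = 4 pairs. It rests on how far the pairs differ from each other, with each gene's spread drawn by edgeR toward that of the other genes. In xenografts FOSL1 and FOSB fell and FOSL2 rose. These 3 of 9 members passed, 1 higher and 2 lower, beside 26.1% of all genes tested (12.6% higher and 13.5% lower), and the median difference was -0.24 over the members and 0.02 over all genes. FOSL1 fell by 2.29 ± 0.19 on the log2 scale (adjusted p = 0.00887, edgeR), with ratios of xenograft to culture of 0.294 and 0.146 in KM12 parental and knockout and 0.200 and 0.204 in LS174T Dox (-) and Dox (+). FOSB fell by 2.41 ± 0.43 (adjusted p = 0.0181, edgeR), with ratios from 0.0768 in KM12 knockout to 0.487 in LS174T Dox (+). FOSL2 rose by 1.05 ± 0.23 on the same scale (adjusted p = 0.02625, edgeR), with ratios of 1.54 and 3.33 in KM12 and 2.31 and 1.53 in LS174T. The same 3 genes were those whose libraries did not overlap between environments, which held for 26.5% of all genes (12.6% higher and 13.9% lower). By direction alone, with TMM, 4 of 9 members had the same sign in all 4 pairs, 3 lower and 1 higher, beside 49.0% of all genes (25.1% lower and 23.8% higher).

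EGR1 was lower in 4 of 4 pairs, with a difference of -1.39 ± 0.43 that did not pass (adjusted p = 0.0601, edgeR). In the LS174T Dox (+) pair its ratio was 0.927 with TMM but 1.10 with library totals, so the 4 of 4 depends on the scaling. Its adjusted p was 0.00435 with DESeq2 and 0.0404 with limma-voom. Pair by pair, at least 2-fold changes were 0 higher and 4 lower members in KM12 parental, where 27.1% of all genes moved that far (17.5% higher, 9.51% lower), and 1 and 4 in KM12 knockout (26.5%: 15.8% and 10.7%). They were 5 and 2 in LS174T Dox (-) (36.8%: 22.1% and 14.8%) and 3 and 2 in Dox (+) (32.5%: 20.8% and 11.7%). The other 5 members did not pass, with differences of 0.75 ± 0.31 for JUND, 0.50 ± 0.36 for ATF3, 0.43 ± 0.58 for JUN, -0.24 ± 0.25 for JUNB and -0.64 ± 0.69 for FOS. For FOS and JUN the SE was larger than the difference, since their pairs went in opposite directions. Single pairs decided some of these calls. With the LS174T Dox (+) pair left out, 0 members and 11 genes passed, and FOSL1 was at adjusted p = 0.0557 by edgeR with a difference of -2.28. Without the LS174T Dox (-) pair, FOSL1 alone passed among 596 genes, and FOSB and FOSL2 were at adjusted p = 0.0698 and 0.0909. FOSL2 was also at adjusted p = 0.0539 (edgeR) without the KM12 knockout pair, and JUND passed without the KM12 parental pair, at 1.09 and adjusted p = 0.0427. Scaling by library totals alone moved the median of all genes from 0.02 to 0.28 on the log2 scale and the split of called genes from 2023 higher and 2166 lower to 3347 and 985; the same 3 member calls remained, and JUNB changed sign, to 0.02.

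**Figure D3:**
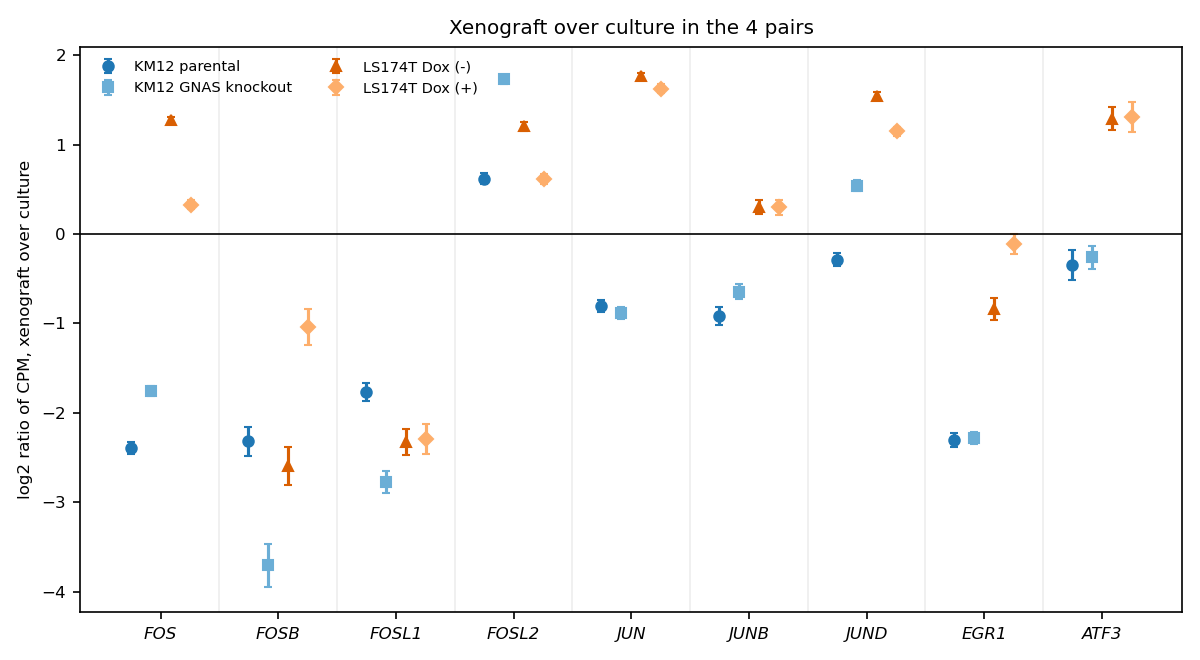
For each gene the 4 points give the log2 ratio of CPM in xenograft over culture in 1 pair each, and bars are 95% intervals for counting error. FOSL1 and FOSB lay below 0 and FOSL2 above 0 in all 4 pairs, while FOS, JUN and JUNB lay below 0 in KM12 and above it in LS174T.

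Whether the xenograft difference was the same in both lines was tested with an interaction of line and environment. With 1 library per group, the spread in this test is how far the 8 libraries depart from the fitted model, not a spread between replicates. The model held line, environment, their interaction and GNAS state. For 6 of 9 members the difference passed as more negative in KM12 than in LS174T, and for 0 as more positive. Over all genes, 8.01% passed in the first direction, 6.51% in the second and 14.5% in either. The median was -1.21 over the members and 0.01 over all genes. JUN differed by -2.54 ± 0.22 (adjusted p = 0.00169, edgeR): the ratio of xenograft to culture was 0.573 and 0.542 in KM12 and 3.41 and 3.09 in LS174T. FOS differed by -2.98 ± 0.47 (adjusted p = 0.0135, edgeR), with ratios of 0.190 and 0.296 in KM12 against 2.42 and 1.26 in LS174T. For ATF3 the difference was -1.60 ± 0.20 (adjusted p = 0.00452, edgeR), from ratios of 0.789 and 0.835 against 2.45 and 2.48. JUNB followed with -1.08 ± 0.18 (adjusted p = 0.0114, edgeR), JUND with -1.21 ± 0.28 (adjusted p = 0.0320) and EGR1 with -1.86 ± 0.34 (adjusted p = 0.0168). FOSL1 and FOSL2 differed between lines by 0.09 ± 0.39 and 0.25 ± 0.37, and FOSB by -0.98 ± 0.75, none of which passed.

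**Figure D4:**
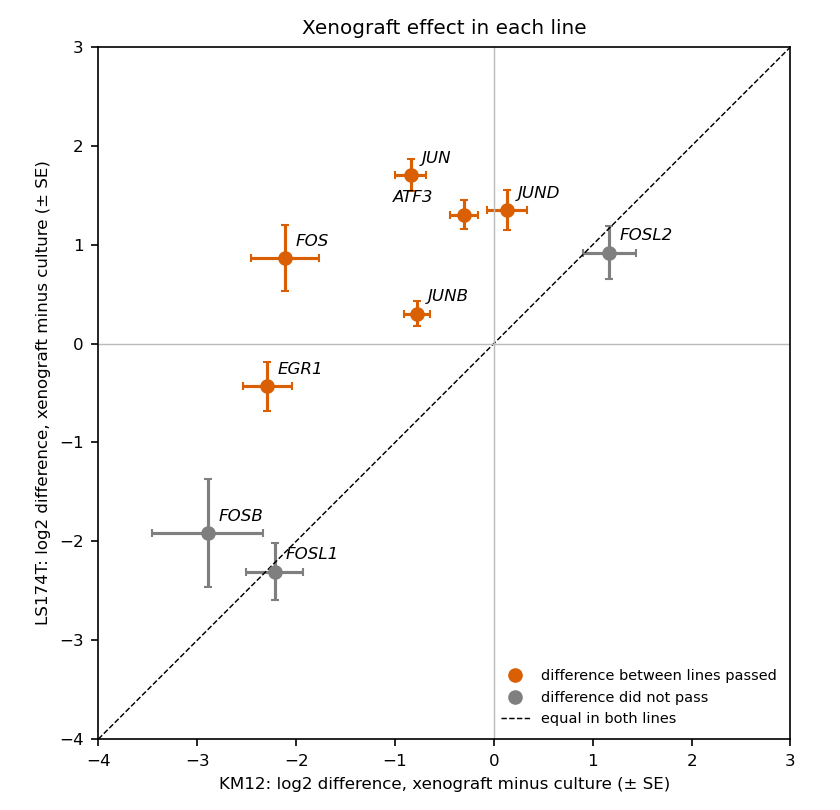
Each point is 1 gene, with the log2 difference between xenograft and culture in KM12 on the x axis and in LS174T on the y axis, and SE bars from the fit of 8 libraries. The 6 members that differed between the lines lay above the dashed line of equal change, and FOSL1 and FOSL2 lay beside it.

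Each of the 8 libraries was left out in turn, an arm then resting on 1 library that was assumed to vary like the others. JUN and ATF3 passed in all 8 of these fits, and all 6 genes kept their sign in all 8. FOS did not pass without the LS174T Dox (-) or Dox (+) culture, at adjusted p = 0.0917 and 0.0735 by edgeR. EGR1 missed the threshold without either of these or the KM12 knockout culture (adjusted p = 0.0886, 0.0884 and 0.0744). JUNB missed it without any 1 of the 4 cultures (adjusted p of 0.0562 to 0.0845). JUND missed it without any LS174T library or the KM12 parental culture (adjusted p of 0.0673 to 0.157). The count of all genes called ranged from 433, without the LS174T Dox (-) culture, to 3447, without the KM12 knockout xenograft.

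Taken by line from the same fit, a step added after the data were seen, KM12 xenografts were lower in 6 members and higher in 1, where 30.6% of all genes passed (16.2% lower and 14.4% higher). EGR1 fell by 2.29 ± 0.25 in KM12 (adjusted p = 0.00207, edgeR), FOS by 2.11 ± 0.34 (adjusted p = 0.00803), JUN by 0.84 ± 0.16 (adjusted p = 0.00880) and JUNB by 0.77 ± 0.13 (adjusted p = 0.0063). FOSL1 and FOSB fell by 2.21 ± 0.29 and 2.89 ± 0.56 there, and FOSL2 rose by 1.17 ± 0.27. Without the filter on low counts FOSB missed the threshold in KM12 (adjusted p = 0.0981, edgeR). ATF3 and JUND did not pass in KM12, at -0.30 ± 0.14 and 0.13 ± 0.20. Without the KM12 parental culture JUN, JUNB and FOSB missed the threshold (adjusted p = 0.0870, 0.0666 and 0.106, edgeR), and without the KM12 knockout culture JUNB, FOSB and FOSL2 did (adjusted p = 0.0571, 0.121 and 0.123). The fibroblast markers summed to 8.38 (parental) and 11.9 CPM (knockout) in the KM12 cultures and to 266 and 15.2 CPM in the matching xenografts. In that order, xenograft to culture ratios were 0.202 and 0.206 for EGR1, 0.190 and 0.296 for FOS and 0.573 and 0.542 for JUN. The part of these markers in the KM12 results was not tested.

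LS174T xenografts were higher in 4 members and lower in 2, where 46.2% of all genes passed (23.3% higher and 22.9% lower). JUN rose by 1.71 ± 0.16 in LS174T (adjusted p = 0.000419, edgeR), ATF3 by 1.30 ± 0.15 (adjusted p = 0.000698), JUND by 1.35 ± 0.20 (adjusted p = 0.00208) and FOSL2 by 0.92 ± 0.27 (adjusted p = 0.0285). FOSL1 fell by 2.31 ± 0.29 (adjusted p = 0.00133, edgeR) and FOSB by 1.92 ± 0.55 (adjusted p = 0.0364). FOS was at 0.86 ± 0.33, JUNB at 0.30 ± 0.13 and EGR1 at -0.43 ± 0.24, and none of these passed. Markers of other kinds moved with these differences in LS174T: 4 of 8 epithelial markers fell and 1 rose, and their sums were 24880 and 19950 CPM in the cultures and 6639 and 4909 CPM in the xenografts. Of the fibroblast markers COL1A2 and ACTA2 fell, 2 of 5 tested, with sums of 13.4 and 13.2 CPM in culture and 5.64 and 5.27 CPM in xenografts. The leukocyte marker CD14 rose, 1 of 3 tested, and 4 of 8 heat shock genes fell, with sums of 9049 and 9536 CPM in culture and 2520 and 3689 CPM in xenografts. In the difference between lines, KRT8, KRT18, KRT19, COL1A2 and ACTA2 were more positive in KM12 and CDX2 more negative. The part of these markers in the results was not tested. With library totals as the scale FOS and JUNB passed as higher (adjusted p = 0.0322 and 0.0141, edgeR) and FOSB missed the threshold, at 0.0510. Without the filter on low counts FOSB was at adjusted p = 0.186, and FOS and EGR1 passed, at 0.78 and -0.50 (adjusted p = 2.91e-05 and 0.01155, edgeR). FOS also passed with DESeq2 (adjusted p = 0.0204). JUN, ATF3, JUND and FOSL1 passed without each of the 4 LS174T libraries, whereas FOSL2 and FOSB each passed in only 1 of these 4 fits (adjusted p up to 0.197 and 0.173, without the Dox (-) culture for FOSL2 and the Dox (-) xenograft for FOSB). Without the Dox (+) xenograft FOS and EGR1 passed, at 1.39 and -0.90 (adjusted p = 0.0117 and 0.0140).

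Other immediate-early genes were also counted by line. Of 28, 10 (35.7%) had a more negative xenograft difference in KM12 than in LS174T and 4 (14.3%) a more positive one. The median was -0.56. Over all genes tested these shares were 8.01% and 6.51%, to be set beside each list count here. The smallest p values belonged to KLF10, a growth repressor induced by TGF-beta, at -1.99 ± 0.21 (adjusted p = 0.00246, edgeR), PPP1R15A, which restores translation after stress, at -2.58 ± 0.27 (adjusted p = 0.00246), and, in the other direction, the nuclear receptor NR4A2 at 2.36 ± 0.29 (adjusted p = 0.00396) and the matrix protein gene CCN2 at 2.30 ± 0.29 (adjusted p = 0.00421). The immediate-early genes were therefore not of 1 direction. Of 7 genes of the ATF4 stress response, ATF4 included, 5 were more negative in KM12, with a median of -1.68. Of these, TRIB3 at -2.99 ± 0.26, ASNS at -2.50 ± 0.24, ATF4 at -1.46 ± 0.17 and SESN2 at -1.26 ± 0.22 had the smallest p values. Of 8 hypoxia genes, 5 were more negative in KM12, and their summed level was 486 and 532 CPM in the KM12 xenografts against 3797 and 2273 CPM in the LS174T Dox (-) and Dox (+) xenografts. The hypoxia sums were 135 to 137 CPM in the KM12 cultures and 199 to 206 CPM in the LS174T cultures. The part of these genes in these results was not tested. Of the other AP-1 and dimer partner genes, JDP2, a repressor that pairs with JUN, was more negative in KM12 (-1.98 ± 0.21) and so was MAFF (-1.30 ± 0.31), 2 of 8 tested. Of 15 AP-1 target genes tested, 4 were more negative in KM12 and 2 more positive. HBEGF, an EGF receptor ligand, stood at -3.56 ± 0.40, VEGFA, the vascular growth factor, at -3.33 ± 0.56, CXCL8, a neutrophil chemokine, at 3.80 ± 0.51 and CCND1, cyclin D1, at 1.10 ± 0.16. ELK4 at 0.96 ± 0.22 was the 1 of 7 serum response factor regulators that passed, MAP2K1 at -0.76 ± 0.18 the 1 of 14 MAP kinase genes, and TGFB1 at -4.76 ± 0.47 the 1 of 8 EGR1 corepressors and targets.

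The same lists were counted for xenograft against culture over both lines. Of the 28 other immediate-early genes, 2 rose and 4 fell (7.14% and 14.3%), with a median of -0.23. Over all genes tested these shares were 12.6% and 13.5%, to be set beside each list count here. NR4A1 rose by 1.41 ± 0.20 (adjusted p = 0.0122, edgeR), and PHLDA1 fell by 1.07 ± 0.16, RHOB by 0.80 ± 0.14 and KLF2 by 1.59 ± 0.36. Of the 7 serum response factor regulators, 3 fell: ELK1 by 0.81 ± 0.11, SRF itself by 0.64 ± 0.11 and its coactivator MRTFA by 0.62 ± 0.12 (adjusted p = 0.0117, 0.0171 and 0.0190, edgeR). Of the 14 MAP kinase genes, MAP2K2, RPS6KA1 and MAP2K4 fell, by 0.52 ± 0.11, 0.73 ± 0.20 and 0.63 ± 0.18, and 0 rose. Among 8 dimer partner genes BATF2 fell by 1.72 ± 0.30 and MAFG by 0.60 ± 0.12, while MAFK rose by 0.71 ± 0.14. Of 15 AP-1 target genes, UHRF1, a DNA methylation factor, rose by 0.55 ± 0.12, while HMGA1 fell by 1.34 ± 0.19, LIF fell by 1.11 ± 0.19 and MMP1, a collagenase, fell by 3.32 ± 0.75. The 2 stress genes that passed, CHAC1 and SESN2, fell by 2.08 ± 0.44 and 1.16 ± 0.30. Of the 8 EGR1 corepressors and targets, GDF15 fell by 1.63 ± 0.23. As context, 7 of 8 hypoxia genes rose, with a median of 3.37, 1 of 8 heat shock genes (HSPA8) fell by 1.66 ± 0.23, and 1 of 8 proliferation genes (PCNA) fell by 0.52 ± 0.13.

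KM12 was compared with LS174T over 4 pairs matched for environment and, by label, for GNAS state, which also differ in how GNAS was altered. The GNAS level itself was not matched. In the higher-state and lower-state pairs its ratio of KM12 to LS174T was 0.641 and 0.431 in culture and 2.01 and 1.54 in xenografts. EGR1 and FOSL1 were higher in KM12, 2 of 9 members (0 were lower) beside 31.5% of all genes (14.8% higher and 16.7% lower). EGR1 was higher by 2.09 ± 0.45 on the log2 scale (adjusted p = 0.0208, edgeR), with ratios of 7.27 and 8.66 in culture and 1.58 and 3.19 in xenografts. FOSL1 was higher by 1.22 ± 0.20 (adjusted p = 0.00865, edgeR), with ratios of 2.40 and 2.19 in culture and 3.46 and 1.60 in xenografts. EGR1 was the 1 member whose libraries did not overlap between lines, as for 29.7% of all genes (14.5% higher). The same sign in all 4 pairs was seen for 3 members, 2 higher and 1 lower, and for 52.1% of all genes (26.5% higher and 25.6% lower). JUND was lower in KM12 in all 4 pairs, at -0.92 ± 0.29, and did not pass (adjusted p = 0.0586, edgeR). The other 6 did not pass, with FOSB at 0.82 ± 0.34, JUN at -1.07 ± 0.60, FOS at -0.33 ± 0.70, ATF3 at 0.16 ± 0.37, JUNB at -0.09 ± 0.25 and FOSL2 at 0.07 ± 0.14. FOSL1 passed without each of the 4 pairs and EGR1 only without the higher-state xenograft pair, with adjusted p of 0.0591 to 0.0760 (edgeR) and differences of 1.70 to 2.25 without the other 3. JUND passed, at -1.20 and adjusted p = 0.0458 (edgeR), without the higher-state culture pair. Without the filter on low counts EGR1 missed the threshold (adjusted p = 0.107, edgeR), and without the pair block FOSL1 did (0.292).

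The relatives of EGR1 also passed as higher in KM12, with all their LS174T levels below 1 CPM. EGR3 was at 5.43 to 14.9 CPM in the KM12 libraries and at 0 to 0.397 CPM in LS174T (adjusted p = 0.00296, edgeR). EGR4 was at 1.70 to 5.50 CPM in KM12 and at 0 to 0.199 CPM in LS174T (adjusted p = 0.00252, edgeR). EGR2, chosen for mention after its values were seen, was at 0.194 to 1.73 CPM against 0 to 0.265 CPM (adjusted p = 0.0157, edgeR). Unlike EGR1, the EGR2 ranges of the lines overlapped, at low levels in both. The 0 values are all in the LS174T Dox (-) xenograft, which also had the lowest EGR1 level. Of the 28 other immediate-early genes, 5 were higher in KM12 and 6 lower (17.9% and 21.4%). Over all genes tested these shares were 14.8% and 16.7%, to be set beside each list count here. The immediate-early list as a whole had no 1 direction. Its lower genes included RHOB at -3.11 ± 0.15 and the ERK phosphatase gene DUSP5. DUSP5 was at 0 to 0.145 CPM in KM12 and 12.8 to 35.7 CPM in LS174T. Of the 8 EGR1 corepressors and targets 3 were higher and 2 lower in KM12, among them the corepressor NAB1 at 1.06 ± 0.14 and the target GDF15 at -1.79 ± 0.18. Of 15 AP-1 targets, 5 were higher and 2 lower in KM12, led by TIMP1 at 1.63 ± 0.12, LIF at 1.36 ± 0.20 and HMGA1 at -1.26 ± 0.19. SRF was higher in KM12 (0.49 ± 0.11) and FHL2 lower (-0.61 ± 0.15), and the kinase gene MAPK3 was lower (-1.67 ± 0.14). Of the dimer partners 1 of 8 was higher and 2 lower, and of the ATF3 stress partners 0 of 7 passed by edgeR.

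The GNAS state was compared over 4 pairs of line and environment. By edgeR 0 of 9 members and 0 of 16070 genes passed, a background of 0.0%, with 977 genes at an unadjusted p below 0.05. GNAS itself, at 1.025 ± 0.28, had an adjusted p of 0.776 in this test. DESeq2 called 53 genes and limma-voom 0. ATF3 had the smallest p of the members. It was lower in the higher GNAS state in 4 of 4 pairs, with ratios of 0.797 in KM12 culture, 0.753 in KM12 xenograft, 0.679 in LS174T culture and 0.688 in LS174T xenograft, a difference of -0.46 ± 0.10 (unadjusted p = 0.00224, adjusted p = 0.776, edgeR). Over the alternatives the adjusted p of ATF3 ran from 0.0310 with DESeq2 to 1.0 without the pair block. JUNB also had the same sign in all 4 pairs, with ratios of 0.790 to 0.953, and 17.1% of all genes did so (8.03% lower and 9.1% higher). The remaining 7 members changed sign between pairs.

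The other members differed between GNAS states by -0.27 ± 0.14 for JUND, -0.20 ± 0.11 for JUN, -0.29 ± 0.24 for FOS, -0.24 ± 0.19 for FOSL2, 0.13 ± 0.20 for FOSL1, 0.13 ± 0.17 for EGR1 and 0.21 ± 0.38 for FOSB. Single pairs held larger values that 1 library per group cannot check. In the LS174T xenografts FOS with Dox (+) was at 0.454 of its level with Dox (-) (95% counting interval 0.441 to 0.467), and EGR1 was at 1.77 of it (1.61 to 1.94). In the KM12 xenografts FOSB and FOSL1 in the parental tumor were at 2.62 (2.16 to 3.20) and 1.94 (1.75 to 2.15) of the knockout level, and FOSL2 and JUND were at 0.602 and 0.619. In the cultures the 9 ratios ran from 0.797 to 1.33 in KM12 and from 0.512 to 1.065 in LS174T, so FOSB in LS174T, at 0.512 (0.470 to 0.558), was the farthest from 1. Past 2-fold in either direction were 0 members in each culture pair, beside 5.90% and 5.08% of all genes, and 1 of 9 in each xenograft pair, FOSB in KM12 and FOS in LS174T, beside 15.3% and 10.6%.

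**Figure D5:**
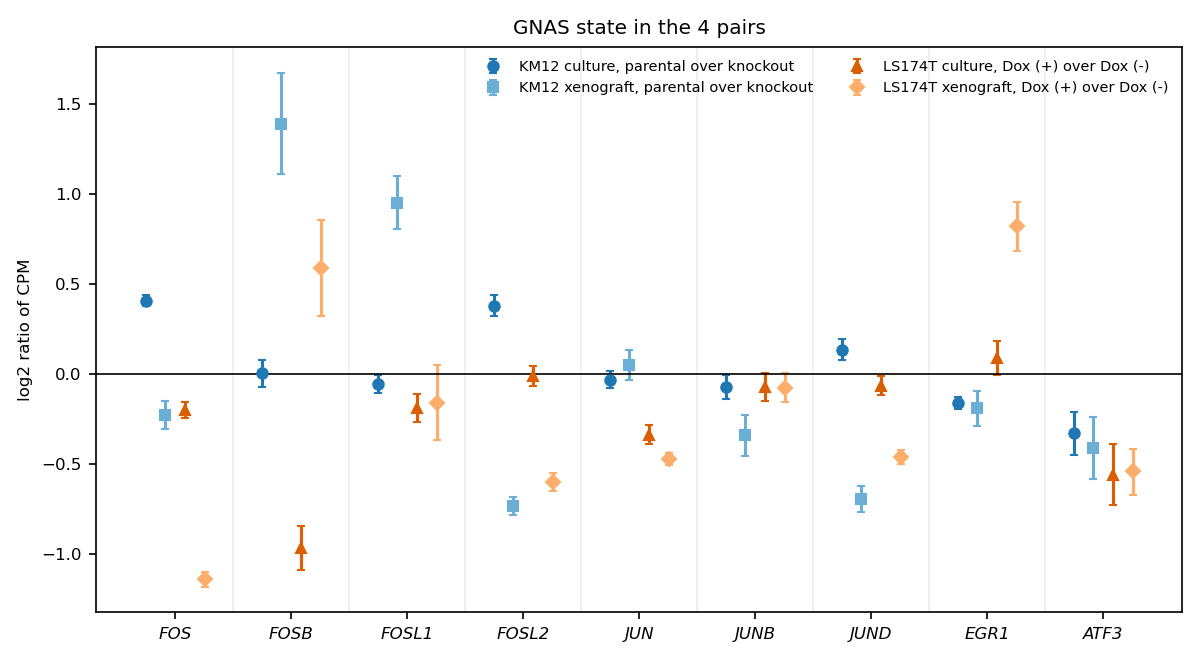
For each gene the 4 points give the log2 ratio of CPM in the higher over the lower GNAS state in 1 pair each, and bars are 95% intervals for counting error. ATF3 lay below 0 in all 4 pairs, between ratios of 0.679 and 0.797, and FOSL2, JUND and FOS were spread on both sides of 0.

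The interactions of GNAS state with environment and with line were also fitted. For environment 0 members and 0 genes passed by edgeR (0.0%), with 809 genes at an unadjusted p below 0.05 and 28 called by DESeq2. FOSL2, FOSB and JUND had the smallest values among the members, at -0.85 ± 0.19, 1.46 ± 0.42 and -0.61 ± 0.17, each with an adjusted p of 0.891. These rest on FOSL2 and JUND being at 0.602 and 0.619 in the KM12 and 0.660 and 0.728 in the LS174T xenograft pairs, against 1.30, 1.10, 0.994 and 0.957 in the culture pairs. Without the filter on low counts FOSL2 and FOSB passed (adjusted p = 0.0306 and 4.42e-05, edgeR). For line, 1 gene passed (0.00622%) and 0 members did, with 648 genes at an unadjusted p below 0.05 and 5 genes by DESeq2, and EGR1 had the smallest p of the members at -0.63 ± 0.27 (adjusted p = 0.964, edgeR). In the test of GNAS state each of the pathway lists had 0 genes called, with medians of -0.23 for the 7 ATF3 stress partners, all below 0, and 0.0017 for the 28 other immediate-early genes. Further lists also lay mostly on 1 side: all 8 heat shock genes were above 0 (median 0.48) and 12 of 14 MAP kinase genes below 0 (median -0.11).

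Across the 8 libraries some pairs of members were alike in pattern. Likeness is described by Pearson's r of log2(CPM + 1) with no test, since the libraries share lines and environments. FOSB followed FOSL1 (r = 0.94) and went against FOSL2 (r = -0.89). FOS followed JUNB (r = 0.92) and JUN followed JUND (r = 0.88). FOS and EGR1, both immediate-early genes, had an r of 0.27. The highest r of EGR1 was 0.79, with FOSL1, followed by 0.76 with FOSB. ATF3 and FOSL2 had no close partner, with highest values of 0.63 (JUN) and 0.51 (JUND). Among 10041 genes whose mean over libraries reached 10 CPM, those most like FOS were RNF44 (r = 0.99), EIF1 (0.97), IARS1 (0.96), COG3 (0.96) and EIF4B (0.96), although EIF1 ranged only from 364 to 533 CPM. Those most like FOSL1 were CRTC2, MORC2, CPSF7, OSBPL10 and CHERP, all at r = 0.99.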

How the data were processed

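Gene-level counts from 8 RNA-seq libraries, enriched for mRNA on oligo(dT) beads, were analysed, 1 per group. The authors deposited raw counts; per the submitters' processing notes reads were aligned with STAR 2.7.2b and counted with HTSeq 0.11.0, and the builds hg38 and GRCm39 are named. The annotation release, strand setting and treatment of mouse reads in xenografts are not given in the sources used here. Gene IDs were named from the GENCODE 29 annotation (56753 of 60483, 93.8%), and 22939 genes had no counts. Sequences came from RefSeq promoter windows.

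A gene was kept if 2 or more libraries had 1 CPM or more of it, which left 16070, and these were tested with edgeR 4.0.16 (TMM, robust quasi-likelihood F test, Benjamini-Hochberg, threshold 0.05) in R 4.3.3. Xenograft against culture, KM12 against LS174T and GNAS state were each fitted over 8 libraries with the 4 matched pairs as a block (3 residual degrees of freedom). The difference between lines used line, environment, GNAS state and an interaction, and the interactions with GNAS state left 2 residual degrees of freedom. An SE is the absolute log2 difference over the square root of F. Because groups have 1 library, p-values rest on the disagreement between pairs, which are not replicates of a group. The edgeR fit also draws each gene's spread toward that of the other genes, so its p-values rest partly on those genes. Single-pair ratios carry 95% intervals for counting error only. The fits were tested on simulated data. Alternatives were DESeq2 1.42.0, limma-voom (limma 3.58.1), other scalings, no filter, no block and left-out pairs or libraries.

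All members were to be named in each comparison, and of the other lists up to 4 genes by smallest p among those called (else up to 2). The members and lists were chosen with earlier results of these data known. Line-specific fits and left-out libraries were added after the data were seen. Some genes of the lists are not reported here.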

Additional observations from a re-analysis of the deposited data

Results flagged for a closer look

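The change from culture to xenograft differed between KM12 and LS174T for 6 of the 9 genes, by the interaction of line and environment (edgeR's quasi-likelihood test, Benjamini-Hochberg adjusted). On the log2 scale the KM12 difference minus the LS174T difference was -2.54 for JUN (adjusted p = 0.00169), -1.60 for ATF3 (0.00452) and -2.98 for FOS (0.0135). For JUNB the value was -1.08 (adjusted p = 0.0114, edgeR), for EGR1 -1.86 (0.0168) and for JUND -1.21 (0.0320). Each line is represented by 4 libraries, 1 per group, so the 2 libraries of an arm differ in GNAS state as well. No group had the 4 samples needed to look for single outlying values.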

How the results depend on the processing

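The labels give no replicate numbers, so samples were paired only by line, GNAS state and environment. No paired analysis was possible because each group holds 1 library, beyond the pair block of the tests themselves. Without that pair block, xenograft against culture called 2500 genes, and KM12 against LS174T called 1 member, where no filter on low counts also gave 1 and limma-voom 4. Counts for GNAS state were 281 with no filter and 53 with DESeq2, which called 1 member. Its interaction with environment gave 160 genes and 2 members with no filter and 28 genes with DESeq2, and that with line gave 123 and 5. The median FOS share per length moved to 59.5%.

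With a pair or library left out, called genes ranged from 11 to 2613 for xenograft against culture (0 to 4 members), 2726 to 4152 for KM12 against LS174T (1 to 2 members), 0 to 1 for GNAS state, 433 to 3447 for the difference between lines (2 to 6 members), 1004 to 5143 in KM12 (4 to 7 members) and 3262 to 5424 in LS174T (4 to 7 members). Fewer libraries entered these fits, and no other cause was tested.

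Signs that changed belonged to members that had not passed. JUNB in xenograft against culture was 0.0237 with library totals and from -0.41 to 0.0002 (without the KM12 parental pair) with a pair left out, and JUN ran from -0.0475 (LS174T Dox (-) pair) and -0.0129 (Dox (+) pair) to 0.92. For KM12 against LS174T with a pair left out, ranges were -0.20 to 0.45 for ATF3, -0.995 to 0.33 for FOS, -0.31 to 0.13 for JUNB and -0.0003 to 0.14 for FOSL2: ATF3 was -0.20 and -0.12 without the higher-state and lower-state culture pairs, FOS 0.08 and JUNB 0.13 without the higher-state xenograft pair, and FOS 0.33, JUNB 0.05 and FOSL2 -0.0003 without the lower-state one. For GNAS state, FOSB was -0.0552 with limma-voom and -0.0755 with no pair block, and EGR1 was -0.0796 with no pair block. With a pair left out EGR1 ran from -0.0881 (LS174T xenograft pair) to 0.23, and FOSB and FOSL1 from -0.17 and -0.13 (KM12 xenograft pair) to 0.63 and 0.24. In the difference between lines, FOSL1 was -0.04, -0.50, -0.15 and -0.12 without the KM12 parental culture, KM12 parental xenograft, LS174T Dox (-) culture and Dox (+) xenograft, with a highest value of 0.58, and FOSL2 was -0.13 and -0.10 without the KM12 knockout culture and xenograft, with a highest value of 0.70. In KM12 alone JUND was -0.14 and -0.15 without the knockout culture and xenograft (highest 0.42), and in LS174T alone EGR1 ran from -0.90 to 0.0026 (without the Dox (-) xenograft). No left-out pairs or libraries were run for the GNAS interactions. The smallest member count in a library was 153, and no group has a second library.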
